A study of Saccharomyces cerevisiae with 42 samples.

Results

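The data described here are the step from 4 h to 5 h in vehicle-treated budding yeast: the 3 libraries deposited for the vehicle at 5 h (column letters A, B and C) were set against the 3 for the vehicle at 4 h (letters B, C and D), 6 samples of the 42 in the series. All yeast genes were taken and the synthetic spike-in RNAs were left out. The cells were Saccharomyces cerevisiae BY4741, a haploid strain of mating type a, made prototrophic with the plasmid pHLUM, which carries HIS3, LEU2, URA3 and a MET gene. A saturated overnight culture was diluted to an A600 of 0.15 in 200 ml of synthetic complete medium at 30°C, and cells were filtered every hour from 0 to 6 h. Vehicle cultures held 0.3% ethanol. The comparison series held 0.3% ethanol with 700 ng/ml myriocin (Myr), an inhibitor of serine palmitoyltransferase, the enzyme that begins sphingolipid synthesis. Each of the 14 groups of hour and treatment had 3 libraries, and spike-in mix 1 went into every vehicle sample and mix 2 into every Myr sample. Hours of a replicate were taken from a single flask, but the deposited columns carry a letter and no replicate number, so the flasks could not be joined between 4 h and 5 h. All cultures were of a single transformed strain, and p-values measure only the spread between libraries. That spread was pooled over the 36 libraries of 1 to 6 h in both treatments, not taken from these 6 alone.

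Cells diluted from a saturated culture leave quiescence, grow on the fresh glucose and amino acids, and use up individual nutrients before growth stops. Several yeast regulons answer the supply of a single nutrient. Ino2 and Ino4 switch on phospholipid genes when inositol runs low, with Opi1 as their repressor, Pho4 switches on phosphatases and phosphate carriers when phosphate is short, Zap1 does the same for zinc carriers, and the GATA factors Gln3 and Gat1 raise permeases for poor nitrogen sources when good ones are scarce.

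Members of a regulon can share a short word upstream of their coding starts, although not all of them hold it. SAM2, MET6, NCE103 and PYC1 were among the largest changes but are not shown here. The upstream regions shown first belong to genes with large changes that hold such a word. Each is the R64 reference sequence from RefSeq, 5′ to 3′ on the strand of the gene and ending at the base before its coding start, with matches to the word named in capitals; both strands were searched. The stretch between OPI3 and MOG1, 159 bases that separate the starts of these 2 divergent genes, runs 5′ to 3′ towards MOG1 (chrX:572936-573094). It and the windows of ITR1 (chrIV:1445468-1445767, minus strand) and CHO1 (chrV:208475-208774, minus strand) show CATGTG, the core of the element bound by Ino2 and Ino4, in capitals.
OPI3 to MOG1: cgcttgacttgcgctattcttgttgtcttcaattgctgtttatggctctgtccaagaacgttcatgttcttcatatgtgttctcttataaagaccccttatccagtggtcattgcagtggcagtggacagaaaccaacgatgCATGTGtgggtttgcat
ITR1: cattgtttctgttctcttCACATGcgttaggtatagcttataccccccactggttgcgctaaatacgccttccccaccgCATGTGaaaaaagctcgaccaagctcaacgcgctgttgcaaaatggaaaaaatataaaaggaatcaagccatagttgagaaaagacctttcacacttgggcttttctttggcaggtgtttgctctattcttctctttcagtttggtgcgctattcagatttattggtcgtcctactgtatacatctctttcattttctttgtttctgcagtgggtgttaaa
CHO1: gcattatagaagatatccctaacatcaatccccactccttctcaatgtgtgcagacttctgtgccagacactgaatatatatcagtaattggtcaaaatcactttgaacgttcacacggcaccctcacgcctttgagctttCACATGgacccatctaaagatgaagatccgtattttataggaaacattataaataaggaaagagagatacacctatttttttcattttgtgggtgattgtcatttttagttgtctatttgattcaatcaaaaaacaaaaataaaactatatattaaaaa
The window of PHO5 (chrII:430952-431251, minus strand) shows CACGTG, the word read by Pho4, and that of ZRT1 (chrVII:20678-20977, plus strand) shows CCTTNAAGG, the core of the zinc-responsive element of Zap1.
PHO5: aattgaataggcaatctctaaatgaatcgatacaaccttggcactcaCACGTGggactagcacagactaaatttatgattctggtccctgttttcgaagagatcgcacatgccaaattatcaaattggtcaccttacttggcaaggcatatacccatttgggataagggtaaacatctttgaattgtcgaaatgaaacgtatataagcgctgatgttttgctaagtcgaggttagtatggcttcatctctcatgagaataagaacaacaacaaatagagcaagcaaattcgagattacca
ZRT1: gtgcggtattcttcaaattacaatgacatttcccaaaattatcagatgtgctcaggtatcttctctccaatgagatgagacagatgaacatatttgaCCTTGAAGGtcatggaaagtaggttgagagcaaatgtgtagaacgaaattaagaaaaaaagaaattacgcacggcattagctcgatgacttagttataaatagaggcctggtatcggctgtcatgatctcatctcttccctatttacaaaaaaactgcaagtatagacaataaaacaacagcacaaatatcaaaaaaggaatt
The windows of 3 genes that fell follow. GAP1 (chrXI:514763-515062, plus strand) and MEP2 (chrXIV:357153-357452, plus strand) show GATAAG, the word of the GATA factors, and FIT3 (chrXV:1061056-1061355, minus strand) shows GCACCC, the core of the site of the iron regulator Aft1, which matched 3 times.
GAP1: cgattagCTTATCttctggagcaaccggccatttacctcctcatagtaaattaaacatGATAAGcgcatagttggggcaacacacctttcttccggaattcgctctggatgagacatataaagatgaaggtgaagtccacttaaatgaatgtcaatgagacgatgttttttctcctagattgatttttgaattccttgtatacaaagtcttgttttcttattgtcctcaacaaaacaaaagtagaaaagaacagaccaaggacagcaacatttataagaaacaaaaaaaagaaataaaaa
MEP2: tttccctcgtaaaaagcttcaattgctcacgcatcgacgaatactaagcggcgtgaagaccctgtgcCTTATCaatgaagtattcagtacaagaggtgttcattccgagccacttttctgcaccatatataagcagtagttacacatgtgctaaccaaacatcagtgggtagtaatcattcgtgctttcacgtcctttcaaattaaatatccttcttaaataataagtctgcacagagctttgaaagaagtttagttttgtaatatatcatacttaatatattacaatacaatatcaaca
FIT3: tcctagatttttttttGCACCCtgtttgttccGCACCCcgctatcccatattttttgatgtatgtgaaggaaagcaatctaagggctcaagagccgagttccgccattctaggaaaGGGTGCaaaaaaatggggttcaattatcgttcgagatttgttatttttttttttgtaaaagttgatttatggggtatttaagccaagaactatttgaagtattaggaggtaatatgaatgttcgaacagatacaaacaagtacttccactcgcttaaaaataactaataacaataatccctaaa

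The values are transcripts per 1000000 (TPM), the share of a library's transcripts that a gene takes after allowance for its length, so each value depends on the rest of its library. The read depth is unknown, and a share cannot tell fewer cells of a kind, such as those at 1 stage of the cell cycle, from less RNA per cell. A library stood apart in each group. RPL41A, which encodes a very short protein of the large ribosomal subunit, took 107109 TPM in the 4 h library B against 42892 and 31548 TPM in C and D, and 85010 TPM in the 5 h library A against 45357 and 44666 TPM in B and C. Genes with a coding length under 400 bases took 54.0% and 50.7% of those 2 libraries and 41.9% to 44.4% of the other 4. The median absolute log2 difference over all genes was 0.481 and 0.504 for pairs of libraries with the 4 h library B, 0.222 and 0.234 for pairs with the 5 h library A, and 0.087 and 0.075 for the remaining pairs. Markers matched the labelled strain. MFA1, which encodes the a-factor pheromone, stood at 2791 to 3376 TPM over the 6 libraries and STE2, the receptor of alpha-factor, at 208 to 331 TPM, while 4 genes specific to alpha cells ranged from 2.22 to 16.4 TPM. The highest level among 6 genes of sporulating cells was 14.8 TPM. Spike-ins took 0.343% to 0.414% of the libraries at 4 h and 0.418% to 0.486% at 5 h.

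The step was small. Of 5983 genes that averaged 1 TPM or more, 103 were higher at 5 h (1.72%) and 50 were lower (0.836%) at an adjusted p under 0.05 in limma, and 820 had an unadjusted p under 0.05. A rise of at least 2-fold was called in 7 genes and a fall of that size in 6. The 3 libraries of 5 h lay wholly above those of 4 h in 90 of the 103 genes and wholly below in 41 of the 50, against 4.66% and 2.57% of all genes. The same libraries chose the called genes, so this separation follows in part from the choice. For the 12 largest changes each way, hours that do not overlap were a condition of the choice. The median log2 difference over all genes was -0.0028. With libraries centred on their medians, 431 genes were higher (7.2%) and 414 lower (6.92%), so the balance between directions depends on the scaling, and 102 of the 103 and 48 of the 50 were among them. Without both RPL41A-rich libraries 82 genes were higher (1.37%) and 161 lower (2.69%), including 66 of the 103 and 41 of the 50. Scaling to the spike-ins moved the median over all genes to -0.23 and left 5 genes higher and 17 lower, so the differences given here are relative to the rest of the transcripts. Among the 12 largest rises SAM2, OPI3, MET6, ITR1 and PHO5 passed under that scaling and the others, including ZRT1 (adjusted p = 0.11), CHO1 (0.067) and ENO1 (0.31), did not, while of the 12 largest falls CPA1 and CAR1 did not. A limma fit of only the 6 vehicle libraries compared left 8 genes higher and 5 lower. The calls it lost included EHT1 (adjusted p = 0.15), MOG1 (0.081) and HXT4 (0.10). Over the same hour with Myr, 1971 genes rose (32.9%) and 400 fell (6.69%).

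Single libraries decided how many genes passed. Without the 4 h library B the lower calls went from 50 to 860, and the median over all genes was -0.15. They were 23 and 21 without the 4 h libraries C and D, and 29 and 27 without the 5 h libraries A and B. The higher calls went from 103 to 49 and 51 without the 5 h libraries B and C. Of the 103, 42 passed without each of the 6 libraries in turn, and of the 50, 14 did. The 12 largest rises and 10 of the 12 largest falls passed every time, the exceptions being YOR302W and CPA1. Without both RPL41A-rich libraries together, some called genes named here no longer passed. They were CKI1, SAM1, PHO11, PHM6, PHO8, ZPS1, PUP3, RPT2, PBI2, CPA1, YOR302W, DDR2 and YAR035C-A, with SRX1, GRX4, FAS1, FAS2 and GPD1.

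**Figure D1:**
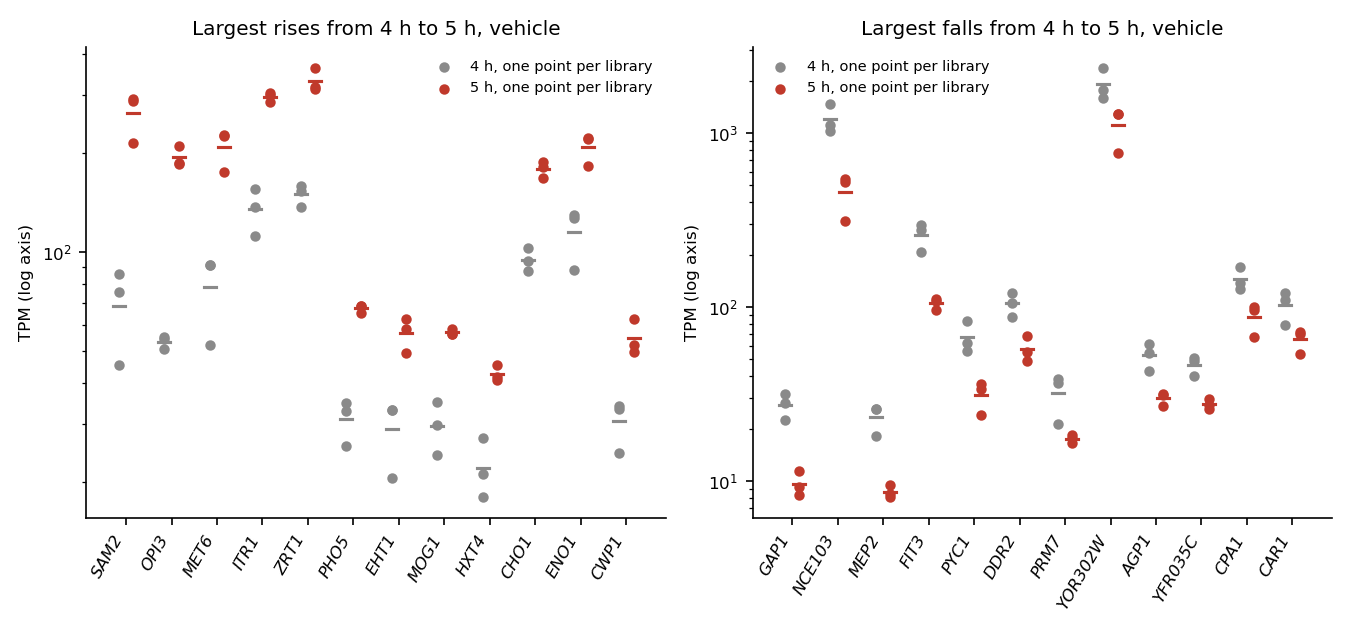
TPM (log axis) of the 12 largest rises and the 12 largest falls from 4 h to 5 h in vehicle, chosen among called genes that averaged 10 TPM or more, with groups that do not overlap. Points are single libraries, bars their means, grey 4 h and red 5 h. SAM2 and OPI3 moved most among the rises and GAP1 and NCE103 most among the falls.

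Phospholipid synthesis and inositol uptake formed the list with the most calls. Of 24 measured members, 10 rose and 0 fell, 20 had a positive difference, and the median of the list was 0.31. OPI3, the methyltransferase that completes phosphatidylcholine, stood at 50.8, 54.3 and 55.2 TPM in the 4 h libraries B, C and D and at 186, 186 and 210.5 TPM in the 5 h libraries A, B and C. Its libraries were tight within each hour and far apart between them (log2 difference 1.84, SE 0.09, adjusted p = 3.4e-15 in limma). In the limma fit of only the libraries compared, its adjusted p was 1.15e-04. ITR1, the main carrier of inositol into the cell, went from 112, 156 and 137 to 286, 301 and 305 TPM (log2 difference 1.15, SE 0.09, adjusted p = 1.4e-10). CHO1, phosphatidylserine synthase, went from 87.9, 94.0 and 103 to 168, 188 and 181 TPM (log2 difference 0.91, SE 0.07, adjusted p = 3.2e-10). HNM1, the choline carrier, went from 57.2, 79.6 and 77.3 to 109, 136 and 130.1 TPM (log2 difference 0.81, SE 0.09, adjusted p = 4.0e-07). In all 4 genes the lowest library at 5 h lay above the highest at 4 h.

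The other 6 called members spanned the same pathways. CHO2, which begins the methylation that OPI3 ends, rose by 0.73 on the log2 scale and CPT1, which joins choline to diacylglycerol, by 0.69. PSD1, which makes phosphatidylethanolamine from phosphatidylserine, rose by 0.64, and CDS1, which makes the precursor CDP-diacylglycerol, by 0.60. OPI1, the repressor of these genes, rose from 24.5, 37.0 and 33.8 to 45.3, 50.5 and 51.8 TPM (0.63). CKI1, choline kinase, rose by 0.58 and passed without only 3 of the 6 libraries in turn, while the other 9 passed without each. The count for the list was 9 to 12 over the libraries left out, 13 of 24 after median centring and 9 without both RPL41A-rich libraries. Over all genes, 7.2% were higher after centring and 1.37% without those 2 libraries. The list's median was 0.07 under spike-in scaling. INO1, the inositol synthase and a textbook target of Ino2 and Ino4, stood at 9.39, 11.3 and 7.54 TPM at 4 h and 7.62, 10.6 and 9.93 TPM at 5 h (log2 difference -0.0004, SE 0.15, adjusted p = 1.0), and the hours overlapped. The activator genes INO2 and INO4 both had a difference of 0.31, with adjusted p of 0.26 and 0.055.

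Most of the called phospholipid genes shared a word in their promoters. CATGTG lay within 300 bases of the coding start in 9 of the 10 called members of the list (all but OPI1), in 14 of the 24 (58.3%), in 26 of the 103 genes that were higher (25.2%), in 1 of the 50 that were lower (2.0%), and in 426 of 5979 promoters of that length (7.12%). Other searched words lay in more of the 103. AGGGG, the word of the stress factors Msn2 and Msn4, lay in 36 of the 103 and 16 of the 50, against 1324 of 5979 promoters. CATGTG was chosen after the values were seen, and a match is a description, not a site. The copy in the stretch shared by OPI3 and MOG1 starts 148 bases before the coding start of OPI3 and 17 before that of MOG1, a factor that acts with the small GTPase of nuclear transport. MOG1 went from 24.2, 29.9 and 35 to 56.4, 56.5 and 58.2 TPM (log2 difference 0.94, SE 0.10, adjusted p = 3.2e-07). USB1, which trims the U6 small nuclear RNA, starts 289 bases from CKI1 on the opposite strand and rose by 0.77. Of 873 divergent neighbours with coding starts up to 600 bases apart, 6 pairs had both genes called, and the members of each pair moved in the same direction. Neighbours in other orientations were not counted, so this number has no background share, and shared control was not tested. EHT1, an acyltransferase that makes ethyl esters, also has a copy of CATGTG, and went from 20.6, 33.0 and 33.2 to 49.4, 58.5 and 62.6 TPM (log2 difference 0.98, SE 0.14, adjusted p = 1.9e-05).

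The largest rise of the step belonged to methyl supply. SAM2, an S-adenosylmethionine synthetase, makes the methyl donor that CHO2 and OPI3 consume. It went from 45.4, 75.5 and 85.5 to 214, 287 and 292 TPM (log2 difference 1.96, SE 0.17, adjusted p = 1.6e-09). MET6, methionine synthase, went from 52.0, 91.5 and 91.3 to 175, 225 and 227 TPM (log2 difference 1.44, SE 0.16, adjusted p = 3.7e-07). In both genes the RPL41A-rich library was the lowest of its hour, and the hours did not overlap. SAM1, the close paralog of SAM2, went from 136, 225 and 247 to 244, 308 and 317 TPM, with groups that overlap (log2 difference 0.55, SE 0.15, adjusted p = 0.04), and reads that fit both paralogs make their split uncertain. These 3 were called higher among 38 measured genes of methionine and sulfate assimilation, with 0 lower and a median of 0.11. The count was 2 without the 4 h library B or the 5 h library B or C, and 5 without any of the other 3. SAM3, the carrier of S-adenosylmethionine, rose from 32.8, 38.6 and 40.8 to 57.8, 69.2 and 61.9 TPM (0.74). CATGTG and CACGTG were not found in the windows of SAM2 and MET6.

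Secreted phosphatases led the phosphate genes. PHO5, the main secreted acid phosphatase, went from 25.8, 34.8 and 32.9 to 68.6, 68.7 and 65.5 TPM (log2 difference 1.10, SE 0.10, adjusted p = 3.5e-09). PHO12 went from 48.8, 64.8 and 61.8 to 99.8, 109 and 100.3 TPM (log2 difference 0.82, SE 0.10, adjusted p = 9.7e-07) and PHO11 from 18, 19.4 and 27.2 to 38.1, 35.3 and 36.7 TPM (log2 difference 0.77, SE 0.16, adjusted p = 0.0038). The hours did not overlap in any of the 3. PHO11 and PHO12 encode nearly identical acid phosphatases, so the division of reads between them is uncertain. PHM6, a gene that responds to phosphate supply, went from 71.6, 74.0 and 70.4 to 134, 115 and 92.6 TPM (0.64) and passed without only 2 of the 6 libraries in turn. PHO8, the vacuolar alkaline phosphatase, rose by 0.32 and passed without 1 of them. These 5 were the called members among 24 targets of Pho4 (median 0.14), with 3 left without the 4 h library C or the 5 h library A or B, and 2, PHO5 and PHO12, without both RPL41A-rich libraries. PHO84, the high-affinity phosphate carrier, stood at 171, 228 and 219 TPM at 4 h and 215, 227 and 219 TPM at 5 h (log2 difference 0.11, SE 0.09, adjusted p = 0.73). CACGTG lay in the windows of 4 of the 5 called genes and 13 of the 24 (54.2%), against 213 of 5979 promoters (3.56%).

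Zinc carriers rose in the same hour. ZRT1, the high-affinity carrier, went from 153, 159 and 138 to 318, 312 and 362 TPM (log2 difference 1.14, SE 0.20, adjusted p = 7.4e-04). ZRT2, the low-affinity carrier, went from 46.3, 66.8 and 55.7 to 90.7, 93.5 and 105 TPM (log2 difference 0.78, SE 0.10, adjusted p = 6.7e-06). Both carriers had hours that did not overlap. ZPS1, a cell surface protein induced by low zinc, rose by 0.46 (adjusted p = 0.0498) and DPP1, a vacuolar lipid phosphatase, by 0.33, and they passed without 3 and 4 of the 6 libraries in turn. Of 18 measured Zap1 targets these 4 were higher and 0 lower (median 0.14), with 2 left without the 5 h library C. The zinc element core was present in 4 of the 18 windows (22.2%) and 29 of 5979 promoters (0.485%), and ZRT1 was the called gene that had it.

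In glycolysis 3 of 14 genes rose, 0 fell, and 13 had a positive difference (median 0.32). ENO1, an enolase with a close paralog, went from 88.4, 127 and 129 to 183, 221 and 222 TPM (log2 difference 0.87, SE 0.13, adjusted p = 5.6e-05), beside PGK1 (0.48) and GPM1 (0.44), which act just before it. The hours of PGK1 overlapped, and the list's median was 0.07 under spike-in scaling. PGK1 and GPM1 lost their calls without the 4 h library B or the 5 h library B or C, which leaves 1 of 14, and the count was 5 without the 5 h library A. HXT4, a glucose carrier of high affinity, rose from 18.1, 27.2 and 21.1 to 45.3, 41.6 and 40.9 TPM (log2 difference 0.93, SE 0.15, adjusted p = 1.1e-04). HXT1, a low-affinity carrier, fell from 129, 179 and 179.9 to 105, 121 and 109 TPM (log2 difference -0.53, SE 0.10, adjusted p = 0.0013), and the hours did not overlap in either carrier gene.

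Genes of protein breakdown had mostly positive differences. Among 41 genes of the proteasome and its regulator RPN4, 39 were positive and the median was 0.23, but 4 passed the test: the catalytic subunits PRE3 (0.40) and PRE2 (0.39), the core subunit PUP3 (0.27) and the ATPase RPT2 (0.28). The count was 2 without the 5 h library B or C, 7 without the 4 h library D and 2 without both RPL41A-rich libraries. It was 26 of 41 after median centring, where 7.2% of all genes were higher, and the median was -0.01 under spike-in scaling. GGTGGCAAA, the element of Rpn4, lay in the windows of all 4 and of 28 of the 41 (68.3%), against 72 of 5979 promoters (1.2%). Of 12 vacuolar proteases and their regulators, PEP4, the aspartyl protease that activates others, rose from 52.4, 68.2 and 75.1 to 86.9, 94.5 and 95.7 TPM (0.51), beside PRC1 (carboxypeptidase Y, 0.42) and PBI2 (an inhibitor of protease B, 0.38), and 0 fell. The 3 calls held without each library in turn, and PBI2 lost its call without both RPL41A-rich libraries together. The 7 trehalose genes had a median of 0.23 with 0 called, and 4 were higher after centring, against 7.2% of all genes.

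A few rises lay outside these groups. In the copper list 2 of 10 rose, the superoxide dismutase SOD1 (0.58) and the metalloreductase FRE1, which went from 10.8, 13.2 and 12.8 to 18.8, 19.2 and 20.5 TPM (0.63), and 2 others were lower without the 4 h library D. CWP1, a cell wall mannoprotein, went from 24.5, 34.2 and 33.4 to 49.8, 52.0 and 62.7 TPM (log2 difference 0.83, SE 0.12, adjusted p = 2.7e-05). LEU2 was the called gene among the 4 of the plasmid, going from 101, 136 and 152 to 153, 202 and 196 TPM (log2 difference 0.51, SE 0.13, adjusted p = 0.031), a call lost without the 4 h library B or the 5 h library B or C. BAR1, the protease that degrades alpha-factor, rose by 0.45.

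**Figure D2:**
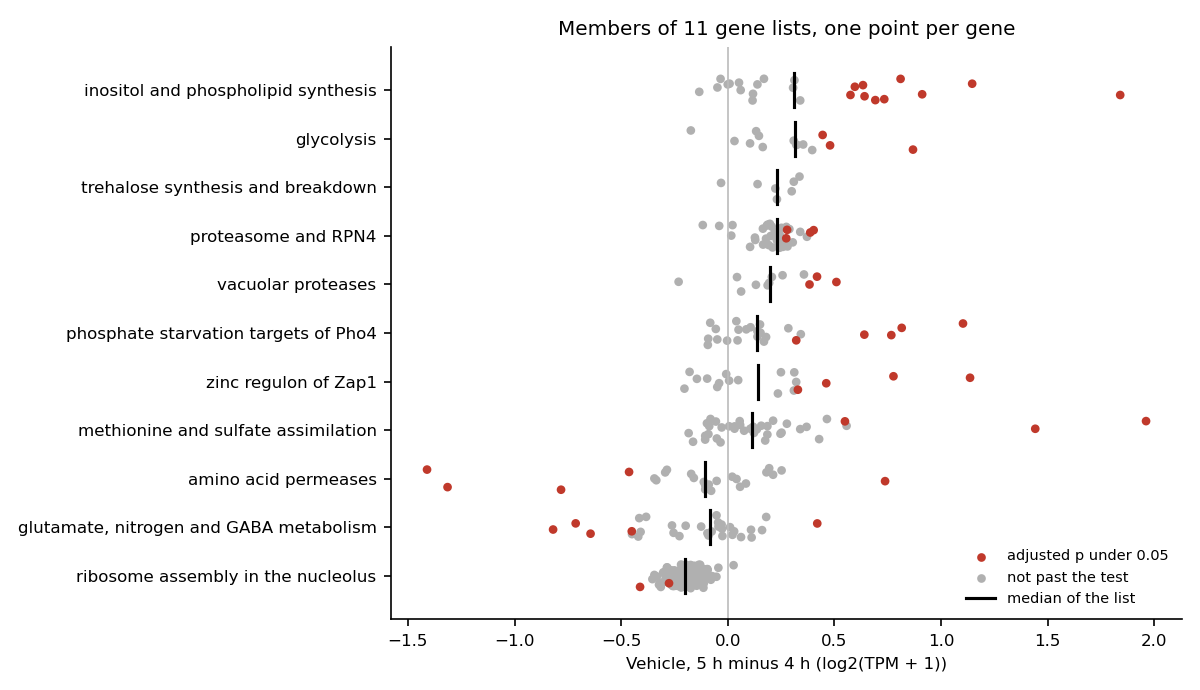
Log2 difference between 5 h and 4 h in vehicle (x axis) for the members of 11 gene lists, with called genes in red, other genes in grey and the list's median as a black bar. The inositol and phospholipid list has 10 red points to the right of 0, and the amino acid permeases have 4 to the left and 1 to the right.

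The falls were led by uptake of nitrogen sources. GAP1, the general amino acid permease, went from 22.3, 31.7 and 28.3 to 8.32, 11.4 and 9.24 TPM (log2 difference -1.41, SE 0.13, adjusted p = 1.1e-08). MEP2, the high-affinity ammonium carrier, went from 18.3, 26.0 and 25.9 to 8.46, 8.15 and 9.51 TPM (log2 difference -1.31, SE 0.12, adjusted p = 4.6e-09). AGP1, a broad amino acid permease, went from 42.9, 61.3 and 54.5 to 27.1, 31.7 and 31.4 TPM (log2 difference -0.78, SE 0.11, adjusted p = 3.2e-05). All 4 h libraries of the 3 genes lay above all 5 h libraries. With PTR2, the peptide carrier (-0.46), they were the 4 called lower among 25 permeases, against SAM3 called higher (median of the list -0.11). The count of lower calls was 9 without the 4 h library B and 3 without each of the other 5. Without the 4 h library B, 860 of all 5983 genes were called lower.

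Of 32 genes of glutamate and nitrogen metabolism, 4 were called lower and 1 higher (median -0.08). CAR1, arginase, went from 79.1, 110.1 and 120.5 to 54.0, 70.1 and 71.5 TPM (log2 difference -0.64, SE 0.14, adjusted p = 0.0054), and its highest library at 5 h lay below its lowest at 4 h. DUR12, the urea amidolyase, went from 6.82, 11.3 and 10.5 to 4.54, 5.11 and 4.93 TPM (-0.82), and DUR3, the urea carrier, from 4.61, 7.23 and 6.93 to 3.00, 3.80 and 3.33 TPM (-0.71). GDH1, the glutamate dehydrogenase that assimilates ammonium, fell with groups that overlap (-0.45). These were the 4 lower, and PUT2 of proline use was the one higher. Without the 4 h library B 9 were lower, in a fit that called 860 of all 5983 genes lower. GATAAG lay in the windows of GAP1, MEP2 and AGP1 but not in those of PTR2, CAR1, DUR12, DUR3 or GDH1, and it lay in that of PUT2, which rose. It was found in 18 of the 50 genes that fell (36%) and in 28 of the 103 that rose (27.2%), against 14.7% of all promoters.

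Genes of 3 enzymes tied to carbon dioxide and bicarbonate were also among the largest falls. NCE103, carbonic anhydrase, went from 1113, 1022 and 1459.7 to 311, 544 and 526 TPM (log2 difference -1.41, SE 0.27, adjusted p = 0.0015). PYC1, pyruvate carboxylase, went from 62.0, 55.9 and 83.5 to 23.8, 33.9 and 36.1 TPM (log2 difference -1.08, SE 0.20, adjusted p = 0.0013). CPA1, the small subunit of the carbamoyl phosphate synthase of arginine synthesis, went from 137, 127 and 169 to 66.9, 96.5 and 100.4 TPM (log2 difference -0.72, SE 0.18, adjusted p = 0.026). In these 3 genes the 5 h library A was the lowest of its hour and the 4 h library D the highest, and the hours did not overlap. YOR302W, the short upstream reading frame of the CPA1 transcript, went from 1597, 1757 and 2348 to 763, 1278 and 1286 TPM (log2 difference -0.80, SE 0.22, adjusted p = 0.046), and is not a measurement independent of CPA1. YOR302W passed without only 1 of the 6 libraries in turn, and CPA1 lost its call without the 4 h library D or the 5 h library A. Without both RPL41A-rich libraries neither passed (adjusted p = 0.12 and 0.11). This grouping was made after the values were seen.

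The remaining large falls belonged to different processes. FIT3, a cell wall mannoprotein that retains iron-bearing siderophores, went from 207, 296 and 276 to 109, 96.7 and 111 TPM (log2 difference -1.28, SE 0.13, adjusted p = 5.7e-08), and GCACCC lay in 4.05% of promoters. Of 31 genes of iron uptake 2 were higher and 2 lower. DDR2, a stress-responsive gene, went from 121, 87.7 and 106 to 54.9, 68.5 and 49.0 TPM (log2 difference -0.86, SE 0.18, adjusted p = 0.0048), and without both RPL41A-rich libraries its adjusted p was 0.055. PRM7, a pheromone-regulated gene, went from 21.4, 36.8 and 38.6 to 16.6, 18.4 and 17.8 TPM (-0.80), and YFR035C from 40.0, 50.8 and 48.8 to 26.1, 27.2 and 29.7 TPM (-0.72). In FIT3, DDR2, PRM7 and YFR035C the hours did not overlap. YAR035C-A was listed at 0 in all 3 libraries of 5 h and at 4.85, 6.81 and 6.38 TPM at 4 h, and passed without only 1 of the 6 libraries in turn. Of 127 genes of ribosome assembly in the nucleolus 1 had a positive difference and the median was -0.20, but 2 were called lower. That count was 99 without the 4 h library B, where 860 of all 5983 genes were lower, and at most 1 without any other single library. It was 17 without both RPL41A-rich libraries and 66 after median centring, where 2.69% and 6.92% of all genes were lower. Of the 68 lists examined, 33 had no called member.

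UBI4, GCN4 and MUP1, which the study discusses, did not pass in this hour, and neither did RPL41A and RPL41B. UBI4, the stress-inducible polyubiquitin gene, went from 37.8, 36.2 and 37.5 to 41.2, 43.8 and 42.4 TPM (log2 difference 0.19, SE 0.08, adjusted p = 0.25), although the hours did not overlap. GCN4, the activator of amino acid synthesis, had a difference of -0.04 (SE 0.12, adjusted p = 0.96) and MUP1, the methionine permease, of 0.25 (SE 0.10, adjusted p = 0.21). RPL41A and RPL41B differed by 0.08 (SE 0.30) and 0.21 (SE 0.29).

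The hourly means place the step within the vehicle course. Between 1 h and 6 h, OPI3 was lowest at 3 h (45.6 TPM), stood at 53.4 ± 2.31 TPM at 4 h and 194 ± 14.2 TPM at 5 h (SD, n = 3), and was at 578 TPM at 6 h. SAM2 went from 16.1 TPM at 2 h through 24.4 and 68.8 TPM to 264 TPM at 5 h. ZRT1 was at 567 TPM at 1 h and 149.8 TPM at 4 h, then stood at 331 TPM at 5 h and at 1647 TPM at 6 h. PHO5 was at 67.6 TPM at 5 h and 37.6 TPM at 6 h. GAP1 and MEP2 were at 27.4 and 23.4 TPM at 4 h, with 11.9 and 13.5 TPM at 3 h and 12.1 and 8.76 TPM at 6 h. From 1 h to 6 h NCE103 was lower at each hour than at the one before, with 2623 TPM at 1 h and 219 TPM at 6 h, and so were PYC1 and FIT3. These levels share libraries with the step and are given as a description.

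**Figure D3:**
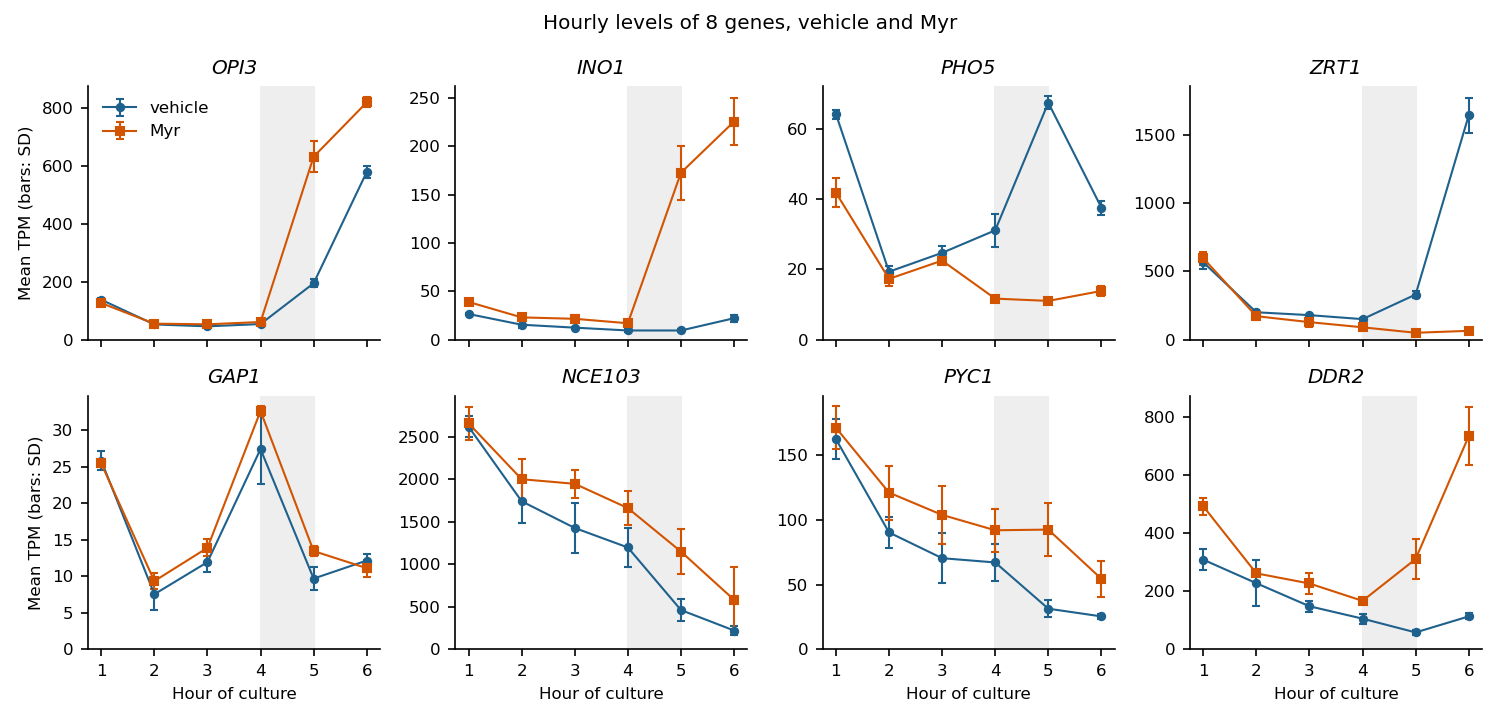
Mean TPM at 1 to 6 h for 8 genes in vehicle and Myr, with bars of 1 SD over 3 libraries and the step from 4 h to 5 h shaded. In vehicle OPI3 and ZRT1 are higher at 5 h than at 4 h and higher again at 6 h. PHO5 is higher at 5 h than at 4 h or 6 h and GAP1 is higher at 4 h than at 3 h or 5 h. INO1 stands at 9.40 and 9.37 TPM at 4 h and 5 h.

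The same hour with Myr shares no library with the vehicle step, and the difference between the steps was tested for every gene. In 59 genes (0.986%) the step was higher in vehicle than with Myr, and in 702 (11.7%) it was lower. With Myr the median over all genes was 0.18, and after median centring 563 genes (9.41%) were higher in vehicle and 748 (12.5%) lower. Of the 103 genes that rose in vehicle, 92 also passed as higher with Myr and 4 as lower, against 32.9% and 6.69% of all genes. The difference between the steps passed for 50 of the 103. The step in vehicle was the lower in 41 and the higher in 9, against 11.7% and 0.986% of all genes. Of the 50 that fell, 25 were also called lower with Myr and 3 higher, against 6.69% and 32.9% of all genes.

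The 10 phospholipid genes that rose in vehicle also passed as higher with Myr, and the step was smaller in vehicle for all of them but HNM1 and CDS1, where the difference did not pass (adjusted p = 0.091 and 0.17). OPI3 went with Myr from 59.6, 59.9 and 61.9 TPM to 584, 689 and 619.5 TPM, a difference of 3.36, so that the vehicle step was smaller (difference of steps -1.52, adjusted p = 4.4e-10). The differences of steps for ITR1 and CHO1 were -0.92 and -0.66 (adjusted p = 1.7e-06 and 2.0e-05). In the list of 24, 10 steps were lower in vehicle and 0 higher, against 11.7% and 0.986% of all genes. INO1 went with Myr from 17.8, 16.2 and 16.6 TPM to 155, 205 and 158 TPM, and its difference of steps was the furthest from 0 among the named genes (-3.27, SE 0.21, adjusted p = 3.3e-12). For SAM2 and MET6 the difference did not pass (-0.48 with SE 0.23 and 0.21 with SE 0.23).

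Of 24 Pho4 targets the step was higher in vehicle for 6, and of 18 Zap1 targets for 5, against 0.986% of all genes. It was lower for 4 and 2 of them, shares near the 11.7% of all genes. PHO5 went with Myr from 12.2, 11.5 and 11.3 TPM to 11.5, 10.3 and 11.3 TPM, and its step was higher in vehicle by 1.18 (SE 0.14, adjusted p = 2.3e-07). The differences for PHO12 and PHO11 were 1.14 and 0.96 (adjusted p = 3.4e-07 and 0.0029). PHO84 fell with Myr from 94.9, 80.5 and 81.3 TPM to 43.8, 34.9 and 39.7 TPM (difference of steps 1.21, adjusted p = 7.9e-08), as did SPL2, a regulator of phosphate uptake (1.27, adjusted p = 6.0e-04). ZRT1 fell with Myr from 81.0, 113 and 75.4 TPM to 48.6, 37.2 and 63.4 TPM, so that its step was higher in vehicle by 1.99 (SE 0.28, adjusted p = 7.0e-06), and for ZRT2 the difference was 0.69 (adjusted p = 0.001). PLB2, a phospholipase B, rose by 0.50 in vehicle and fell with Myr (difference 1.27, adjusted p = 7.8e-07). OLE1, the fatty acid desaturase, INA1 and IZH4 did not pass in vehicle and fell with Myr, with differences of 1.42, 1.37 and 1.22. SNR191, a small nucleolar RNA within NOG2, passed in neither step alone, differed by 1.33 between them (adjusted p = 0.0073), and may share reads with its host.

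Most targets of the stress factors had a lower step in vehicle than with Myr. DDR2, which fell in vehicle, went with Myr from 172, 168 and 159.8 TPM to 233, 362 and 337 TPM (difference of steps -1.73, adjusted p = 8.9e-06). RTC3 stood at 8.97, 8.44 and 7.00 TPM and then 8.40, 11.1 and 8.41 TPM in vehicle, and went with Myr from 17.5, 21.6 and 14.7 TPM to 135, 198 and 171 TPM (-2.99, adjusted p = 7.6e-10). HOR7, NQM1 and GSC2, a glucan synthase subunit, differed by -2.54, -2.68 and -2.43, and none passed in vehicle. Of 39 targets of Msn2 and Msn4, 31 steps were lower in vehicle, against 11.7% of all genes. Their median was 0.02 in vehicle and 1.02 with Myr, where the median over all genes was 0.18. In the vehicle step 1 of the targets rose (PNC1, a nicotinamidase) and 1 fell (DDR2). For the nitrogen carriers the difference did not pass, with -0.19 (SE 0.19) for GAP1, 0.34 (SE 0.17) for MEP2 and 0.07 (SE 0.16) for AGP1. PYC1 fell in vehicle and went with Myr from 87.2, 111 and 78.1 TPM to 80.2, 81.0 and 116 TPM (difference of steps -1.08, SE 0.28, adjusted p = 0.0091). For NCE103 and CPA1, described with PYC1 above, the difference did not pass (-0.86 and -0.08, adjusted p = 0.14 and 0.87). CPA1 was also called lower with Myr (-0.64).

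**Figure D4:**
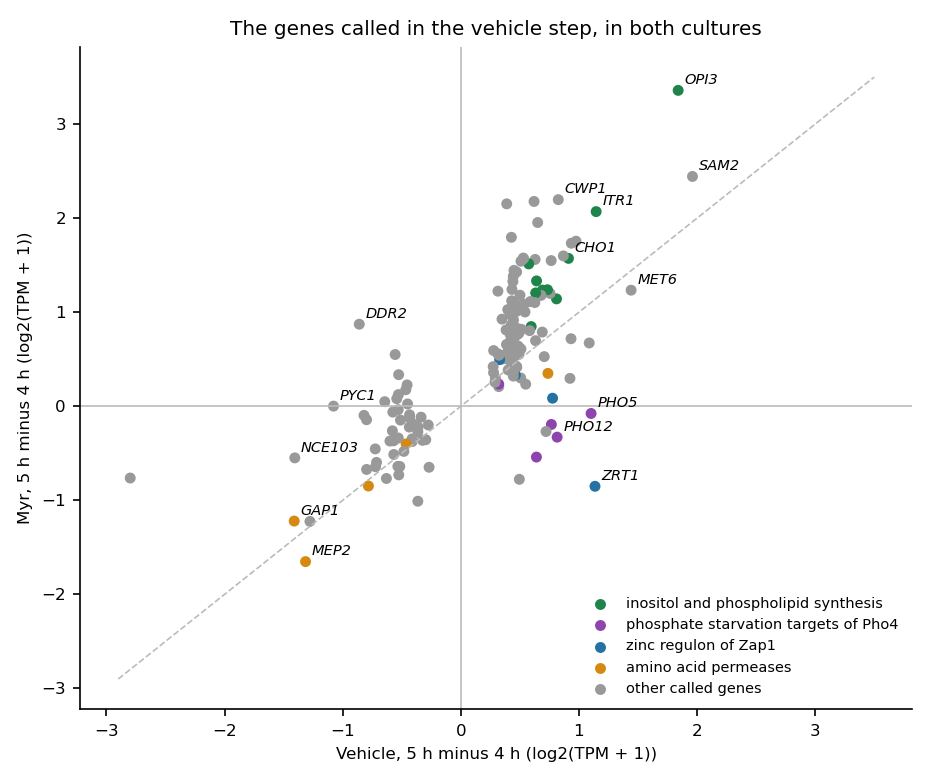
Log2 difference between 5 h and 4 h in vehicle (x axis) and with Myr (y axis) for the 153 genes called in the vehicle step, with the dashed line marking equal steps. OPI3 lies above the line, PHO5, PHO12 and ZRT1 lie below 0 on the y axis, and GAP1 lies near the line. The leftmost point is YAR035C-A, which was listed at 0 at 5 h.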

How the data were processed

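Poly(A) RNA was sequenced from 42 samples. The authors trimmed the reads with Trimmomatic 0.36, quantified transcripts against R64 with Salmon 0.8.2, correcting for sequence and GC bias, and deposited TPM values for 6106 yeast genes and 92 spike-ins, each library summing to 1000000. TPM values hold no read depth, so no counting interval was computed, and the values measure shares of a library.

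From these, log2(TPM + 1) was fitted in limma 3.58.1 (R 4.3.3) as 12 group means over the 36 libraries of 1 to 6 h, with a variance trend, for genes that averaged 1 TPM or more, and p-values were Benjamini-Hochberg adjusted over all genes tested. Log2 differences are on that scale and understate the change of low genes. The contrasts were 5 h minus 4 h in vehicle, the same with Myr, and their difference. 

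Named genes were the 12 largest called changes in each direction (averaging 10 TPM or more, hours not overlapping). Up to 4 called members were added from each list described. A list was described with 20% of its members called one way, or a median at least 0.2 from that of all genes. The 8 largest called differences between steps in each direction were also named. So were UBI4, GCN4 and MUP1, which the study discusses, RPL41A and RPL41B, and the strain markers. Other genes and lists in the text were chosen after their values were seen. The genes and lists were chosen with earlier results of these data known. Promoter words were searched on both strands in the 300 bases before each coding start (RefSeq, R64), 19 words in all, of which those of Ino2 and Ino4, the GATA factors and Zap1 were added after the values were seen. Alternatives covered the pseudocount, filter, scaling, libraries in the fit and each library left out.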

Additional observations from a re-analysis of the deposited data

Results flagged for a closer look

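These named genes are listed because their step from 4 h to 5 h differed between vehicle and Myr by the test of the difference itself (limma, adjusted p under 0.05). The values in parentheses are the vehicle step minus the Myr step on the log2 scale, and each kept its sign after median centring. The step was higher in vehicle for ZRT1 (1.99), OLE1 (1.42), INA1 (1.37), SNR191 (1.33), PLB2 (1.27), SPL2 (1.27), IZH4 (1.22), PHO84 (1.21) and PHO5 (1.18). It was lower in vehicle for INO1 (-3.27), CPP3 (-3.06), RTC3 (-2.99), NQM1 (-2.68), HOR7 (-2.54), TYC1 (-2.53), GSC2 (-2.43), MNC1 (-2.41), DDR2 (-1.73) and OPI3 (-1.52). It was also lower, by less, for CWP1 (-1.37), PYC1 (-1.08), ITR1 (-0.92), MOG1 (-0.80), EHT1 (-0.78), ENO1 (-0.73), CAR1 (-0.69) and CHO1 (-0.66). The reads of SNR191 may be shared with NOG2, in which it lies. Vehicle and Myr samples received different spike-in mixes.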

How the results depend on the processing

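The direction of the named changes was stable and the number of calls was not. None of the 45 named vehicle differences reversed sign under any alternative, and 45 stayed called after median centring, 36 without both RPL41A-rich libraries, 15 under spike-in scaling and 11 in a fit of only the libraries compared. Of the 16 largest differences between steps, 15 or 16 stayed called throughout. The 103 higher and 50 lower calls became 431 and 414 after median centring, 5 and 17 under spike-in scaling, 454 and 489 with a coding length trend removed, 34 and 12 in a fit of vehicle libraries alone, 8 and 5 in a fit of only the libraries compared, 360 and 347 with centring without both RPL41A-rich libraries, and 216 and 140 at an unadjusted p of 0.01 or less. Lower calls were 161 without both RPL41A-rich libraries. With the column letter as a block 269 were higher and 73 lower. With single libraries left out, higher calls ranged from 49 to 149 and lower calls from 21 to 860. Of the differences from Myr, the 59 higher in vehicle became 563 after centring, 16 under spike-in scaling, 807 with the length trend removed, 27 with only the libraries compared, 143 with the column letter as a block, 102 without both RPL41A-rich libraries, 606 with centring as well, and 42 to 116 with single libraries left out. The 702 lower became 83 under spike-in scaling, 273 with only the libraries compared, 1698 without both RPL41A-rich libraries, and 458 to 2555 with single libraries left out, 2555 without the vehicle 4 h library B and 465 and 458 without C and D of that hour. The cause was not tested. Centring without both RPL41A-rich libraries was chosen after seeing the data. No paired analysis was possible because the columns carry letters and not the replicate numbers of the labels, so that only the fit above, with the letter as a block, could be run, and nothing in the labels says that a letter marks a flask. TPM alone give no depth, so the precision of low genes rests on the spread between libraries of a group, pooled over the 36 libraries of the fit.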

Other observations

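Several called genes belong to groups that did not meet the rule for description and were picked after their values were seen. Of 38 genes of oxidative stress defence, 4 were higher and 1 lower, with a median of 0.16. SRX1, sulfiredoxin, went from 3.90, 5.19 and 5.14 to 9.15, 7.39 and 8.81 TPM (0.72), SOD1 is described above, and the peroxidases PRX1 and HYR1 had log2 differences of 0.50 and 0.42, and the glutaredoxin GRX4 fell by 0.32. Both subunits of fatty acid synthase rose together, FAS1 from 40.3, 61.4 and 63.3 to 64.5, 78.9 and 83.5 TPM (0.47) and FAS2 from 45.1, 67.2 and 71.1 to 71.9, 91.1 and 96.5 TPM (0.51), each passed without 3 of the 6 libraries in turn and neither without both RPL41A-rich libraries. GPD1, which makes glycerol 3-phosphate, rose by 0.62 and ZWF1, the first enzyme of the pentose phosphate pathway, by 0.59. SRX1, GRX4 and GPD1 did not pass without both RPL41A-rich libraries.

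Among genes of amino acid and vitamin supply, ARG4, which completes arginine, went from 42.2, 58.1 and 61.0 to 69.9, 94.9 and 94.6 TPM (log2 difference 0.68, SE 0.12, adjusted p = 4.7e-04), in the hour when CPA1 fell. BAT2, a branched-chain aminotransferase, went from 45.6, 57.6 and 72.4 to 33.9, 39.8 and 41.3 TPM (-0.58), and THI7, the thiamine carrier, from 28.4, 44.0 and 38.9 to 22.0, 23.2 and 24.7 TPM (-0.63). The hours did not overlap in these 3 genes.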
